A study of Mus musculus with 36 samples.

Results

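The genes described are 7 genes of bone matrix and of the osteoblast, the cell that makes bone: Ibsp, Bglap, Spp1, Sp7, Dmp1, Alpl and Runx2. They were found by gene symbol in the deposited expression table, where all 7 were present among 18845 genes. The members were chosen by their CPM levels over the spinal cord ages and diaphragm groups of these libraries, so their levels and differences are given as a description, without a test. The data are RNA recovered from mouse tissue by purification of HA-tagged ribosomes, in 36 libraries that form 12 groups of 3. All mice carried the Ribo-tag allele, which adds the HA tag to a ribosomal protein in cells with Cre. The Cre-positive diaphragm groups were synapse-enriched muscle of ChAT-Cre;Ribo-tag mice, and the Cre-negative diaphragm groups were the same tissue of mice with Ribo-tag alone. The spinal cord groups all came from ChAT-Cre;Ribo-tag mice. Each tissue and genotype was sampled at E15.5, an embryonic day, at P0.5 and P10, counted in days after birth, and in adults aged 2 months. ChAT-Cre is active in cholinergic neurons, among them motor neurons, and a Cre-negative library holds what the purification recovers without Cre. No Cre-negative spinal cord was analysed here, so the background of the purification was not measured in that tissue.

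Bone is laid down by osteoblasts, whose differentiation depends on the transcription factors Runx2 and Sp7 (osterix). Osteoblasts secrete collagen and acidic proteins that bind mineral, among them bone sialoprotein (Ibsp), osteopontin (Spp1), dentin matrix protein (Dmp1) and osteocalcin (Bglap), while tissue-nonspecific alkaline phosphatase (Alpl) frees phosphate for mineral. Not all of these genes are restricted to bone: Spp1 is also known in motor neurons and in macrophages, and Alpl in endothelial and neural cells. In RNA purified from whole tissue, fewer cells of a type, less RNA per cell and less background of the purification cannot be told apart.

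On the GRCm38.p6 annotation, which is the mm10 assembly of the submitters' processing notes, 3 of the genes are neighbours. Dmp1 (chr5:104197575-104214102), Ibsp (chr5:104299287-104311472) and Spp1 (chr5:104435111-104441053) lie within 243 kb of chromosome 5. They belong to the same family of acidic glycoproteins, and their relative Mepe (chr5:104325329-104338611) lies between Ibsp and Spp1. Bglap (chr3:88383495-88384466) lies with its near-identical copies Bglap2 and Bglap3 within 15.9 kb, so reads may be shared out among the copies and the level of each is uncertain. Alpl is at chr4:137741731-137796384, Sp7 at chr15:102356603-102367035 and Runx2 at chr17:44495987-44814797.

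Promoters from RefSeq (GRCm38.p6, the 250 bases before a start site) were matched for 6 of the 7 genes, with 9 start sites in all. The promoters of Bglap, Ibsp and the first start site of Spp1 are shown because Ibsp and Bglap ran one course with age in spinal cord and Spp1 another. Each is written 5′ to 3′ on the strand of the gene and ends 1 base before the start site. Capitals mark ACCACA, the other strand of TGTGGT, which is the core bound by Runx factors, and TATAAA or its other strand TTTATA.
Bglap (chr3:88384467-88384716, minus strand): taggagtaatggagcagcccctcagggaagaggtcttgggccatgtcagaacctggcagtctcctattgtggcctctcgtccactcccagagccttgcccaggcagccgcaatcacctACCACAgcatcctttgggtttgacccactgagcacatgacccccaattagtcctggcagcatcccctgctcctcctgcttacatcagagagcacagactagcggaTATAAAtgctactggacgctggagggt
Ibsp (chr5:104299037-104299286, plus strand): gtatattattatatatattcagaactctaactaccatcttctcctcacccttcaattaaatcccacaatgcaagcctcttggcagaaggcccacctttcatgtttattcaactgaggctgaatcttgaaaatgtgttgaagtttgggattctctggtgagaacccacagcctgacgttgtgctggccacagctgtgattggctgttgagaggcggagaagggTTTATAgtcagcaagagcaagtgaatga
Spp1 (chr5:104434861-104435110, plus strand): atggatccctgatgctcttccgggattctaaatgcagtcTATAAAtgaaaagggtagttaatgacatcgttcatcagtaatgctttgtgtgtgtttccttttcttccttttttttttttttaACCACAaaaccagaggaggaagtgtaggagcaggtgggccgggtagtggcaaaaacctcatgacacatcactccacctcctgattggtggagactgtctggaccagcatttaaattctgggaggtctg
TGTGGT was searched on both strands. It was present in 4 of the 9 promoters, those of Bglap, Runx2, the first start of Spp1 and the second start of Dmp1, against 14.0% of 32851 promoters of this length. Among 25 promoters of 20 other bone and mineralization genes it was in 4. In Bglap it stood at 132 to 127 bases before the start and in Spp1 at 128 to 123 bases before it. The related letters TGCGGT were in 0 of the 9, against 5.10% of all promoters and 1 of the 25. TATAAA on either strand was in 4 of the 9, against 12.4% of all and 4 of the 25. It lay 27 to 22 bases before the start in Bglap and 28 to 23 bases before it in Ibsp, but 211 to 206 bases before it in Spp1. These matches are letters in a window and say nothing of binding.

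Depth, recovered from the value of 1 read, ranged in M reads (M, 1000000) from 86.0 to 107 in Cre-positive diaphragm, from 68.2 to 93.7 in Cre-negative diaphragm and from 63.7 to 71.8 in spinal cord. Levels are in CPM, reads per 1000000 reads of the table, and 3 reads amount to at most 0.0471 CPM in any library. The table holds no transcript lengths, so the levels of different genes were not set against each other. In every group the library best written as a positively weighted mixture of its 2 companions is called intermediate, so this rule names 1 per group. The weights added up to 0.9992 to 0.9996, and columns of equal sum bring such weights near 1. The mixture left a share of 0.00109 to 0.00249 of the squared scaled levels unexplained, against 0.00193 to 0.0315 for the next best library. In Cre-positive diaphragm at P0.5 these were 0.00169 and 0.00193, so the choice there was close. The intermediate library was replicate 3 in 9 of the 12 groups, and its level fell between those of its companions for 46.4% to 84.0% of genes. The labels do not say whether libraries of a group came from separate animals, so p-values measure the spread between these libraries, and results that rest on the intermediate ones are also given without them. Chat, the cholinergic marker whose gene drives Cre, averaged 15.9 ± 0.261 CPM at E15.5, 11.5 ± 1.2 CPM at P0.5, 64.9 ± 8.50 CPM at P10 and 64.6 ± 3.09 CPM in adults in spinal cord (SD, n = 3 each). In diaphragm at E15.5 Chat averaged 0.0784 ± 0.0787 CPM in Cre-positive libraries and had 0 reads in Cre-negative ones (SD, n = 3).

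In spinal cord the 7 genes followed 2 courses. Ibsp, Bglap, Alpl and Runx2 were highest at E15.5 and lower in adults. Spp1 and Dmp1 were low at P0.5, higher at P10 and highest in adults. Sp7 took neither course. All 7 genes had reads in every library at E15.5, P0.5 and P10, and in adults Bglap alone had 0 reads.

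Ibsp, a matrix protein that is a marker of mineralizing osteoblasts, had 53.7, 97.1 and 71.3 CPM in the 3 spinal cord libraries at E15.5. It had 3.39, 4.04 and 4.12 CPM at P0.5, 0.306, 0.620 and 0.483 CPM at P10, and 0.563, 0.755 and 0.608 CPM in adults. The E15.5 libraries stood far above all others, the P0.5 libraries formed a middle step, and the P10 and adult libraries overlapped. The mean at P0.5 was 19.2-fold lower than at E15.5, and the adult mean was 115-fold lower than at E15.5. On the log2(CPM + 1) scale the differences were -3.91 ± 0.16 (P0.5 minus E15.5), -1.73 ± 0.16 (P10 minus P0.5) and 0.16 ± 0.16 (adult minus P10; SE of the fit). Without the intermediate libraries the first was -3.96.

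Bglap, which encodes osteocalcin, had 33.9, 19.5 and 28.8 CPM at E15.5 in spinal cord. It had 3.79, 1.49 and 1.85 CPM at P0.5 and 1.62, 2.98 and 1.69 CPM at P10. No adult library had a read of it. The P0.5 and P10 libraries overlapped, the E15.5 libraries lay above them, and the adult mean was at least 48.2-fold lower than at P10, taking 3 reads per library as the floor. That bound covers the reads assigned to Bglap and not those of its copies. Among the E15.5 libraries replicate 2 had the highest Ibsp and the lowest Bglap, and replicate 1 the reverse. Replicate 3, the intermediate library of this group, lay between them in both genes. The copy Bglap2 had 17.8, 15.4 and 17.2 CPM at E15.5, 1.93, 0.376 and 1.08 CPM at P0.5, 0, 1.25 and 0.679 CPM at P10, and 0.237, 0.114 and 0.449 CPM in adults. Bglap3 did not exceed 0.390 CPM in any spinal cord library. The adult libraries thus held reads assigned to Bglap2 and none assigned to Bglap. The mean of Bglap2 was 2.42-fold lower in adults than at P10, and the libraries of these ages overlapped.

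Alpl, the phosphatase of mineralization, differed less in fold from E15.5 to P0.5 and from E15.5 to adults than Ibsp or Bglap. Its levels in spinal cord were 8.41, 7.66 and 8.36 CPM at E15.5, 6.25, 5.59 and 5.77 CPM at P0.5, 2.69, 2.17 and 3.21 CPM at P10, and 2.55, 2.18 and 2.40 CPM in adults. The E15.5 and P0.5 libraries each lay above those of the next age, and P10 and adult libraries overlapped. The P0.5 mean was 1.39-fold lower than at E15.5 and the adult mean 3.43-fold lower than at E15.5. The P10 mean was 2.18-fold lower than at P0.5, against 1.13-fold for Bglap. Between adults and P10 the log2 difference was -0.12 ± 0.10, and it was 0.03 with DESeq2 size factors.

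**Figure D1:**
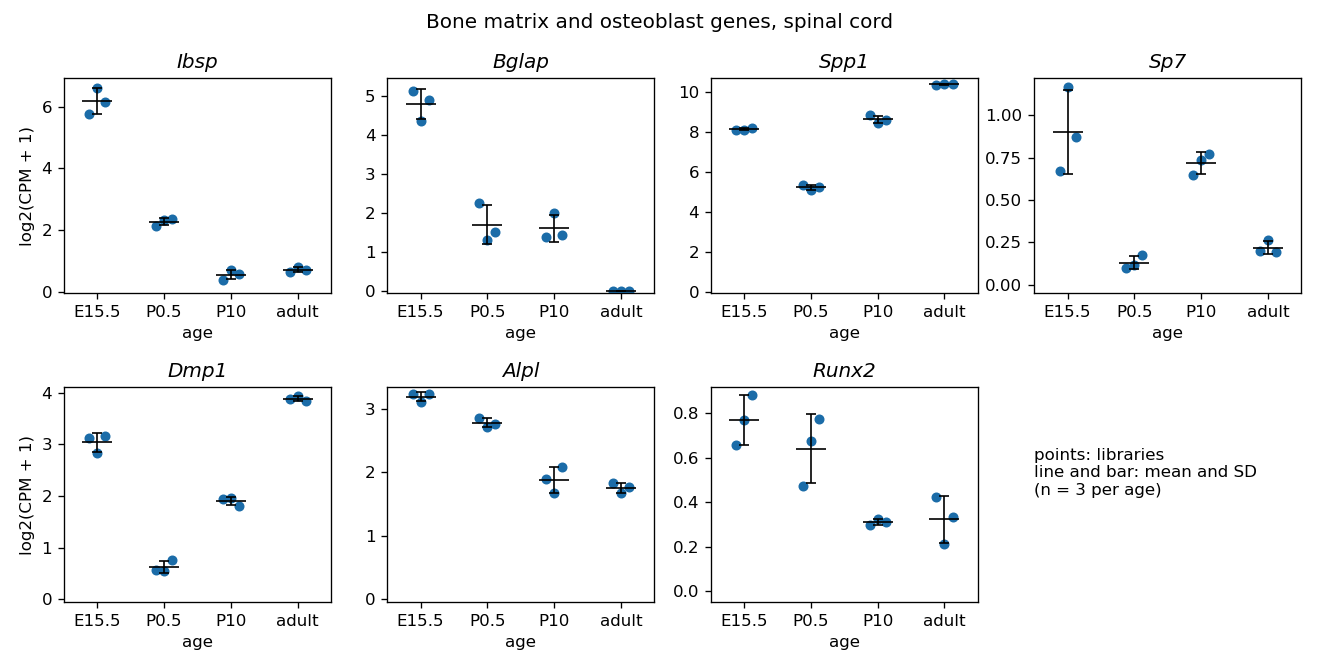
Levels of the 7 genes in spinal cord as log2(CPM + 1) by age, with a point per library and the mean and SD of 3 libraries. Ibsp, Bglap, Alpl and Runx2 are highest at E15.5, Spp1 and Dmp1 are lowest at P0.5 and highest in adults, and Sp7 has similar levels at E15.5 and P10; the vertical scales differ.

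The transcription factors were scarce. Runx2, which commits cells to the osteoblast lineage, had 0.576, 0.706 and 0.844 CPM at E15.5 and 0.386, 0.599 and 0.711 CPM at P0.5 in spinal cord. It had 0.230, 0.251 and 0.241 CPM at P10, and 0.340, 0.157 and 0.261 CPM in adults. The first 2 ages overlapped with each other, as did the last 2, and all P0.5 libraries were above all P10 libraries. Sp7, which acts after Runx2, had 0.592, 1.24 and 0.828 CPM at E15.5, 0.0715, 0.0836 and 0.128 CPM at P0.5, 0.566, 0.664 and 0.709 CPM at P10, and 0.148, 0.199 and 0.145 CPM in adults. These levels rest on sums of 170, 20, 129 and 34 reads over the 3 libraries of an age. The E15.5 and P10 libraries of Sp7 overlapped, and both lay above the P0.5 and adult libraries. Neither factor reached 1 CPM in 3 libraries, the minimum for the fit, so 5 of the 7 genes had a fitted difference.

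Spp1, which encodes osteopontin, had 275, 271 and 289 CPM at E15.5 in spinal cord and 39.6, 33.4 and 36.9 CPM at P0.5. It had 452, 351 and 386 CPM at P10, and 1305, 1350 and 1318 CPM in adults. No 2 ages overlapped, and the order from low to high was P0.5, E15.5, P10 and adult. The P0.5 mean was 7.60-fold lower than at E15.5, the P10 mean 10.8-fold higher than at P0.5 and the adult mean 3.34-fold higher than at P10. As log2 differences these were -2.89 ± 0.08, 3.40 ± 0.08 and 1.75 ± 0.08 (SE), and -2.87, 3.42 and 1.73 without the intermediate libraries.

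Dmp1, a matrix protein of osteocytes in bone, ran alongside Spp1 at lower counts. It had 7.74, 6.12 and 7.96 CPM at E15.5, 0.486, 0.474 and 0.696 CPM at P0.5, 2.83, 2.88 and 2.52 CPM at P10, and 13.7, 14.3 and 13.3 CPM in adults. No ages overlapped. From low to high the order was P0.5, P10, E15.5 and adult, so that P10 stood below E15.5 for Dmp1 and above it for Spp1. The log2 differences were -2.41 ± 0.10, 1.27 ± 0.10 and 1.98 ± 0.10 (SE). Dspp, the neighbouring gene for a dentin protein, averaged 0.131 ± 0.0666 CPM in adults and at most 0.0354 CPM at the earlier ages. Mepe averaged 0.427 ± 0.156 CPM at E15.5 and had 0 reads at P10 and in adults (SD, n = 3). On chromosome 5, Ibsp and the scarce Mepe, both highest at E15.5, thus lay between Dmp1 and Spp1, which were highest in adults.

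**Figure D2:**
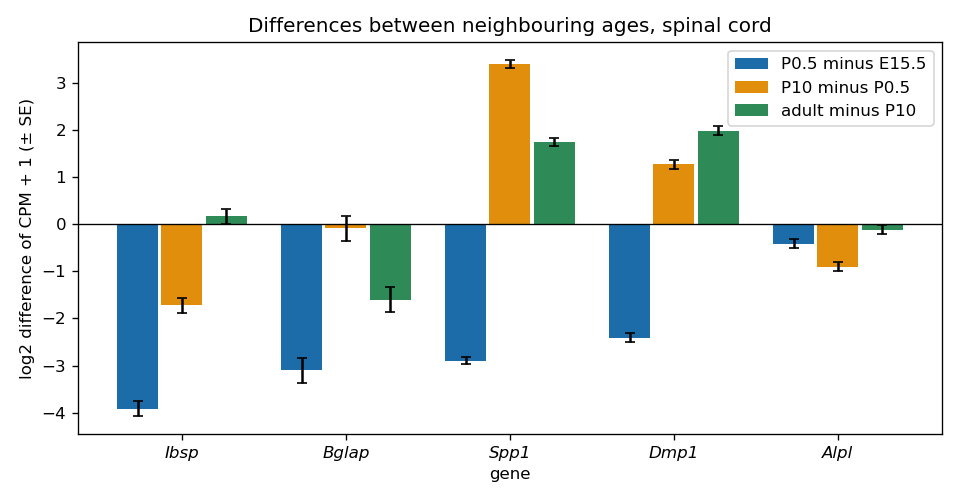
Differences between neighbouring ages in spinal cord on the log2(CPM + 1) scale for the 5 fitted genes, with bars for the estimates and whiskers for their SE. The 5 bars of P0.5 minus E15.5 are all below 0, while those of P10 minus P0.5 and of adult minus P10 are above 0 for Spp1 and Dmp1 only, apart from 0.16 for Ibsp in the last.

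Counted over the 7 genes, 6 were lower at P0.5 than at E15.5 with no overlap between the libraries and 0 were higher, beside 46.4% lower and 29.3% higher among the 13373 genes tested. At P10, 3 genes were lower and 3 higher than at P0.5 without overlap, beside 44.7% and 36.5% of tested genes. In adults, 2 were lower and 2 higher than at P10, beside 46.7% and 26%. Set against E15.5, adult libraries had 5 of the genes lower and 2 higher, beside 58% and 26.5%. Since many genes separated between ages in spinal cord, these counts are a description beside that background.

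The genes most alike in course to Ibsp, by Pearson's r of log2(CPM + 1) over the 12 spinal cord libraries and 13554 genes, were Mmp13 (r = 0.997), Isl1 (0.997), Comp (0.995), Islr2 (0.994) and Prkar2a (0.993). Mmp13, a collagenase of hypertrophic cartilage and bone, averaged 5.83 CPM at E15.5, 0.846 CPM at P0.5, 0.0200 CPM at P10 and 0.00483 CPM in adults. Comp, a cartilage matrix protein, averaged 11.5, 1.54, 0.0852 and 0.337 CPM at these ages in turn. Isl1, a transcription factor of motor neurons, averaged 140.2, 44.8, 21.7 and 24 CPM. For Spp1 they were Arl6ip1 (r = 0.999), Gpatch11 (0.998), Pomp (0.996), Cog6 (0.995) and Ppp1r12a (0.995). For Dmp1, which was added after its values were seen, they were Crip2 (r = 0.992), Hspa5 (0.992), Ramac (0.991), Edil3 (0.990) and Cct7 (0.989). The 12 points of each of these correlations fall into 4 clusters by age, so r describes the likeness of 4 age levels and little else. Between the genes themselves r was 0.903 for Dmp1 and Spp1, 0.910 for Bglap and Ibsp, 0.891 for Alpl and Ibsp, -0.26 for Ibsp and Spp1, and 0.09 for Dmp1 and Ibsp.

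Of a list of 34 other bone and mineralization genes 21 were tested, and 14 of these fell and 2 rose at P0.5 against E15.5 (limma, Benjamini-Hochberg adjusted p under 0.05), beside 44.4% lower and 27.9% higher, 72.3% in all, over all tested genes. Bglap2 averaged 1.13 ± 0.778 CPM at P0.5 and 16.8 ± 1.26 CPM at E15.5 (log2 difference -3.13). Reads may be shared out between it and Bglap, so its difference is given without a test, although it is among the 14. Ifitm5, a membrane protein of osteoblasts, averaged 1.43 ± 0.0320 and 8.70 ± 0.708 CPM at these ages (-1.99, adjusted p = 3.2e-11, limma). Mmp13 averaged 0.846 ± 0.168 CPM at P0.5 and 5.83 ± 1.17 CPM at E15.5. It passed the filter on low levels through the E15.5 libraries alone, so its difference is given without a test, although it is among the 14. Col1a2, a chain of type I collagen, fell to 35.6 ± 3.69 CPM, against 133 ± 25.4 CPM (-1.86, adjusted p = 0.0034, limma, and 0.086 without the intermediate libraries). The median log2 difference of the 21 genes was -0.52, beside -0.13 for all tested genes. With DESeq2 size factors 10 fell and 3 rose, of 20 tested, and without the intermediate libraries 7 fell and 1 rose, of 17 tested. Mmp13 did not pass the filter there.

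At P10 against P0.5, 9 of the 21 listed genes fell and 6 rose, beside 43.5% lower and 35.2% higher, 78.7% together, over all. Creb3l1, a transcription factor of collagen secretion, averaged 3.23 ± 0.729 CPM at P10 and 21.8 ± 0.550 CPM at P0.5 (log2 difference -2.44, adjusted p = 1.3e-11, limma). Smpd3, a sphingomyelinase needed for mineralization, averaged 4.29 ± 0.103 and 21.2 ± 0.624 CPM (-2.06, adjusted p = 5.0e-13, limma). Phospho1, a phosphatase of matrix vesicles, rose to 5.08 ± 0.428 CPM at P10, against 0.438 ± 0.159 CPM at P0.5 (2.08, adjusted p = 4.8e-10, limma). Kazald1 rose to 33.4 ± 2.80 CPM, against 7.31 ± 0.348 CPM (2.05, adjusted p = 7.1e-12, limma). The median of the list was -0.51, beside -0.08 for all tested genes.

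In adults against P10, 10 of the 21 fell and 2 rose, beside 44.3% lower and 23.6% higher, 67.9% together, over all. The type I collagen genes had the largest falls by the naming rule. Col1a1 averaged 0.687 ± 0.381 CPM in adults and 31.3 ± 23.3 CPM at P10 (log2 difference -3.93, adjusted p = 3.4e-04, limma), and Col1a2 averaged 1.88 ± 0.379 and 24.6 ± 15.0 CPM (-2.96, adjusted p = 2.4e-04, limma). Creb3l1 fell to 0.583 ± 0.173 CPM, against 3.23 ± 0.729 CPM (-1.41, adjusted p = 2.1e-08, limma). Vdr, the vitamin D receptor, rose to 11.8 ± 0.219 CPM, against 4.46 ± 1.15 CPM (1.25, adjusted p = 1.0e-06, limma). The median of the list was -0.32, beside -0.16 for all tested genes. Spp1 and Dmp1, in the same comparison, were higher by 1.75 and 1.98 log2 units.

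The summed levels of cartilage, fibroblast and marrow neutrophil markers averaged less at each later age in spinal cord. Summed over 22 cartilage genes, the level averaged 387 ± 8.38 CPM at E15.5, 160.0 ± 18.6 CPM at P0.5, 91.8 ± 8.14 CPM at P10 and 44.2 ± 1.2 CPM in adults (SD, n = 3 each). Of 21 tested cartilage genes 17 fell and 2 rose at P0.5 against E15.5, 12 fell and 3 rose at P10 against P0.5, and 13 fell and 3 rose in adults against P10, beside 44.4%, 43.5% and 44.3% of all tested genes falling and 27.9%, 35.2% and 23.6% rising in these comparisons. Col2a1, the collagen of cartilage, averaged 93.6 ± 10.3, 21.3 ± 0.886, 0.884 ± 0.180 and 0.0388 ± 0.00893 CPM at the 4 ages in turn. The 17 fibroblast and meninges genes summed to 1005 ± 138, 440.1 ± 32.6, 149 ± 59.9 and 34.2 ± 2.17 CPM over the same ages, with 8, 9 and 13 of 17 falling in the 3 comparisons in turn and 2 rising in each of the first 2 (limma). Marrow neutrophil genes summed to 129 ± 17.5, 51.2 ± 1.39, 25.6 ± 6.72 and 17.0 ± 2.47 CPM, with 5, 4 and 3 of 7 tested falling and 1 rising in each. The counts of 8 and 9 of 17 for fibroblast genes and of 3 of 7 for neutrophil genes lie near the share of all genes that fell. The part of these cells in the levels of the bone genes was not tested.

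Of the osteoclast list some genes are given apart, since Ckb, a creatine kinase also made in the brain, supplied most of its sum. Osteoclasts are the cells that resorb bone. Acp5, their acid phosphatase, averaged 22.0 ± 2.28 CPM at E15.5, 3.70 ± 0.737 CPM at P0.5, 0.146 ± 0.129 CPM at P10 and 0.222 ± 0.159 CPM in adults. Ctsk, their collagen-degrading protease, averaged 21.2 ± 0.949, 5.45 ± 0.241, 6.46 ± 0.629 and 1.67 ± 0.207 CPM over the same ages. Acp5 and Ctsk were named after their values were seen. Ostm1, the most abundant of the list after Ckb from P0.5 on, went the other way over these ages. Its means were 16.0 ± 1.13 CPM at P0.5, 21.5 ± 1.24 CPM at P10 and 31.6 ± 1.19 CPM in adults. With Ckb the 15 genes summed to 648 ± 7.25, 851 ± 8.48, 1194 ± 59.7 and 1421 ± 83.9 CPM. Of 8 tested osteoclast genes 6, 2 and 3 fell and 2, 6 and 2 rose in the 3 comparisons in turn, beside 44.4%, 43.5% and 44.3% of all tested genes falling and 27.9%, 35.2% and 23.6% rising.

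Spp1 is known outside bone from motor neurons and macrophages, and Alpl from endothelial cells, so markers of these cells were summed too. The 20 motor neuron genes summed to 8363 ± 122 CPM at E15.5, 8655 ± 543 CPM at P0.5, 11916 ± 522 CPM at P10 and 13529 ± 193 CPM in adults. The neurofilament genes Nefm and Nefl supplied 2404 and 2210 CPM of that at E15.5 and 4961 and 3679 CPM in adults. Of 19 tested motor neuron genes 3 rose and 10 fell at P0.5, 12 rose and 6 fell at P10, and 7 rose and 1 fell in adults, each against the age before, beside the same shares of all tested genes as for the osteoclast list. The 15 microglia and macrophage genes summed to 154 ± 21.5, 202 ± 33.5, 124 ± 3.18 and 136 ± 6.88 CPM, with 5, 4 and 2 of 13 tested rising and 4, 6 and 3 falling. Endothelial genes summed to 123 ± 7.73, 110 ± 15.6, 136 ± 5.77 and 161 ± 4.26 CPM over the 4 ages, with 1, 7 and 1 of 12 rising and 9, 2 and 7 falling. Erythroid genes summed to 4770 ± 720, 3536 ± 98.2, 5798 ± 866 and 1308 ± 132 CPM, and of 5 tested 4 fell at P0.5, 5 rose at P10 and 5 fell in adults (limma). Whether Spp1 in spinal cord came from neurons, bone or other cells was not tested.

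**Figure D3:**
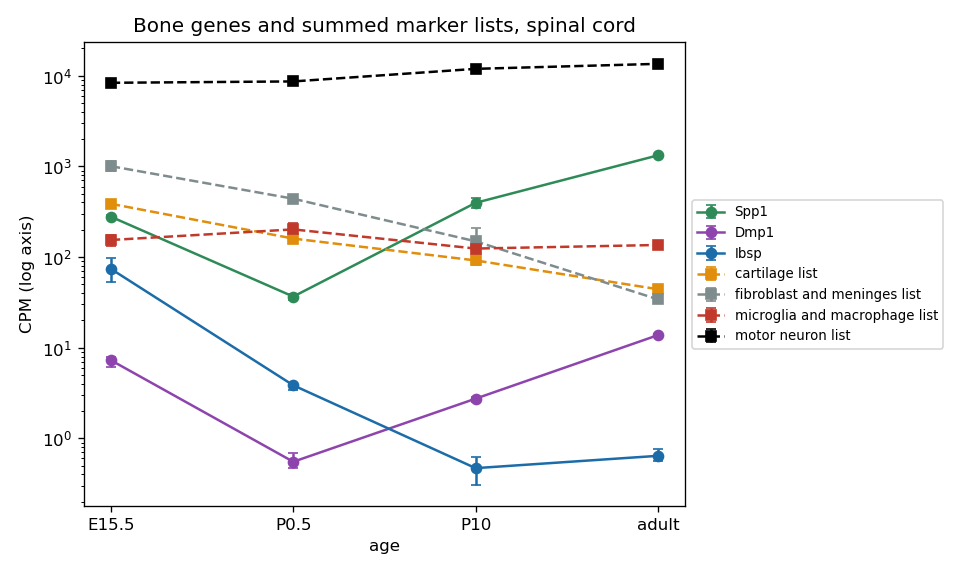
Mean levels in spinal cord by age, in CPM on a log axis, of Spp1, Dmp1 and Ibsp and of the summed levels of 4 marker lists, with whiskers from the lowest to the highest of 3 libraries. The cartilage and fibroblast lists run downward with age. Ibsp runs downward to P10, where its libraries overlap those of adults. The motor neuron list runs upward to 13529 CPM, and Spp1 and Dmp1 dip at P0.5 and are highest in adults.

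In diaphragm Ibsp, Bglap, Spp1 and Dmp1 had their highest means at E15.5, in each genotype where they had reads. Alpl did not: it averaged 8.30 ± 3.65 CPM in Cre-positive and 7.07 ± 6.42 CPM in Cre-negative adult libraries, and 6.54 ± 5.0 and 0.225 ± 0.297 CPM in these genotypes at E15.5. Runx2 was highest at P0.5 in Cre-negative libraries. The comparison of Cre-positive with Cre-negative libraries asks what the purification adds over its background. Ibsp had 167, 6.48 and 136 CPM in the 3 Cre-positive libraries at E15.5, against 8.93, 4.23 and 2.21 CPM in the Cre-negative ones. Spp1 had 168, 1.96 and 135 CPM in Cre-positive libraries and 24.2, 36.2 and 32.3 CPM in Cre-negative ones. In both genes Cre-positive replicates 1 and 3 were high, while replicate 2 lay among the Cre-negative libraries for Ibsp and below all of them for Spp1.

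The other bone genes had the same library split at E15.5. Bglap had 7.06, 0 and 4.40 CPM in Cre-positive libraries and 0 reads in the Cre-negative ones. Alpl had 10.2, 0.829 and 8.61 CPM in Cre-positive libraries, against 0.562, 0.112 and 0 CPM in Cre-negative ones. Dmp1 had 3.68, 0 and 2.37 CPM in Cre-positive libraries and 2.2, 1.77 and 1.15 CPM in Cre-negative ones. Sp7 had 1.27, 0 and 1.22 CPM in Cre-positive libraries, against 0, 0.0498 and 0 CPM in Cre-negative ones. Runx2 had 0.978, 0 and 0.722 CPM in Cre-positive libraries and 0.476, 0.137 and 0.0625 CPM in Cre-negative ones. Summed over the 7 genes, Cre-positive replicates 1, 2 and 3 had 358, 9.27 and 288 CPM, against 36.3, 42.5 and 35.7 CPM in the Cre-negative libraries. Replicate 2 also stood apart in other measures: 10 erythroid genes summed to 129445, 216242 and 145924 CPM in Cre-positive replicates 1, 2 and 3, against 117992 to 123730 CPM in Cre-negative libraries. The share of genes at 0 was 16.0%, 24.6% and 15.4% in Cre-positive replicates 1, 2 and 3, against 34.2%, 23.3% and 24.9% in the Cre-negative libraries. The part of these differences in the split was not tested. Alpl was the 1 gene of the 7 whose groups did not overlap, beside 16.1% higher and 22.4% lower without overlap among 13853 genes tested.

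Cre-positive replicate 3 at E15.5 was the intermediate library of its group, with weights of 0.806 on replicate 1 and 0.194 on replicate 2. The weighted sum gave 136 CPM for Ibsp and 135 CPM for Spp1, beside 136 and 135 CPM in the library itself. For Alpl it gave 8.36 CPM beside 8.61, for Bglap 5.69 beside 4.40, for Dmp1 2.96 beside 2.37, for Sp7 1.02 beside 1.22 and for Runx2 0.788 beside 0.722 CPM. The high levels of replicates 1 and 3 are therefore not shown to be separate observations. Over the 4 ages, the intermediate library lay between the other 2 in 13 of 17 cases in Cre-positive and 12 of 16 in Cre-negative diaphragm where a gene of the 7 had reads, and in 15 of 27 cases in spinal cord.

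The fitted log2 differences at E15.5, Cre-positive minus Cre-negative, were 3.34 ± 0.69 for Ibsp, 2.27 ± 0.64 for Alpl, 0.38 ± 0.95 for Spp1, 0.31 ± 0.37 for Runx2 and -0.09 ± 0.35 for Dmp1 (SE). Leaving out Cre-positive replicate 2 gave 4.78 for Ibsp, 3.11 for Alpl, 2.27 for Spp1 and 0.57 for Dmp1. Leaving out Cre-positive replicate 1 gave 2.54, 1.80, -0.65 and -0.54 for the same genes. Without the intermediate library of every group they were 2.65 for Ibsp, 1.86 for Alpl, -0.37 for Spp1 and -0.28 for Dmp1. The direction for Spp1 and Dmp1 thus hung on single libraries.

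The cartilage list split the same way. Its 22 genes summed to 5475, 481 and 4556 CPM in Cre-positive replicates 1, 2 and 3 at E15.5, against 455, 185 and 104 CPM in the Cre-negative libraries. Of 20 tested cartilage genes 15 were higher in Cre-positive libraries (limma), beside 4.88% higher and 6.11% lower, 11% together, over all tested genes. At P0.5 the list summed to 353, 698 and 328 CPM in Cre-positive replicates 1, 2 and 3, against 126, 27.8 and 47.0 CPM in Cre-negative libraries, and 13 of the 20 were higher and 1 lower (limma), beside 12.1% and 15.7% over all. Its sum at P0.5 was thus highest in Cre-positive replicate 2, in which all 7 bone genes had 0 reads. Over the whole table at E15.5, 6 genes were called higher and 1 lower without the intermediate libraries. At most 6 of the 15 cartilage genes were thus called higher there. At P0.5 far fewer genes were also called without the intermediate libraries, and the cartilage genes among them were not counted. Cre-positive replicate 1 was the intermediate library at P0.5, with a weight of 0.965 on replicate 3. Col2a1 averaged 640.2 ± 476 CPM in Cre-positive libraries at E15.5 and 29.8 ± 37.6 CPM in Cre-negative ones (SD, n = 3). The osteoclast list summed at E15.5 to 195, 146 and 189 CPM in Cre-positive libraries and 60.4, 115 and 129 CPM in Cre-negative ones. Acp5 averaged 60.1 ± 1.32 CPM in Cre-positive libraries and 24.7 ± 7.77 CPM in Cre-negative ones. The part of cartilage or bone tissue in the levels of the 7 genes was not tested.

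**Figure D4:**
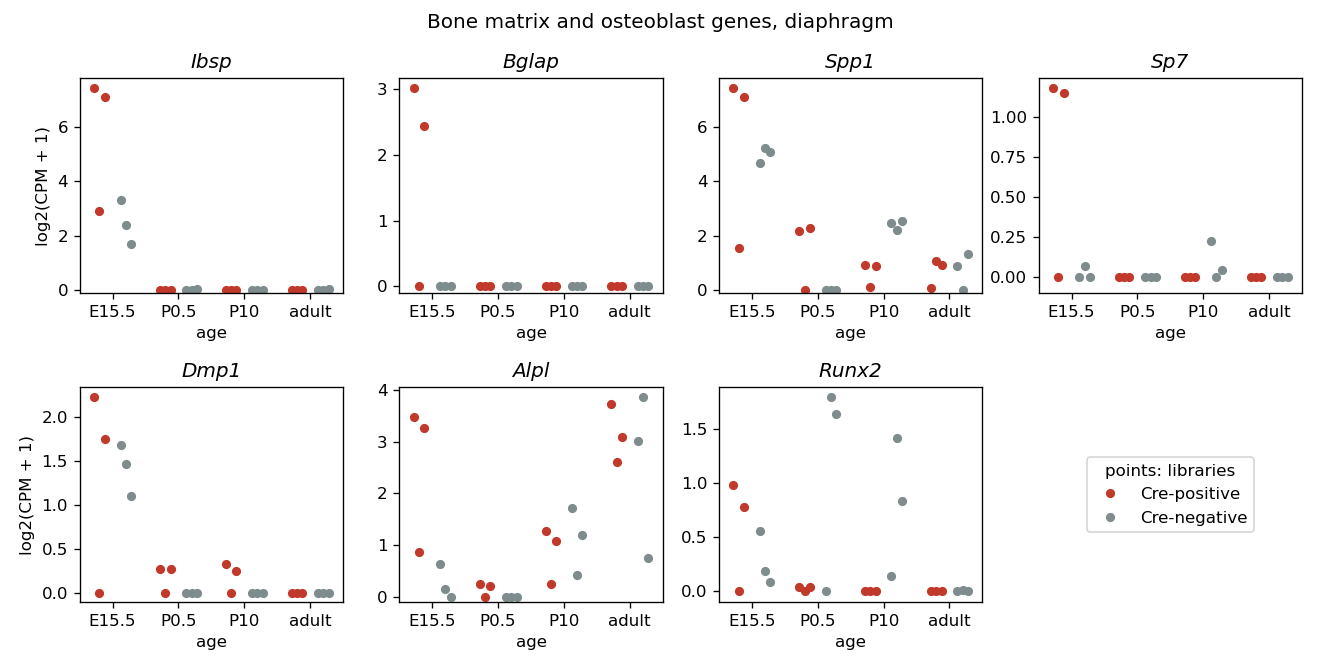
Levels of the 7 genes in diaphragm as log2(CPM + 1) by age, with a point per library, Cre-positive left and Cre-negative right at each age. At E15.5 Cre-positive replicates 1 and 3 are high in all 7 genes and replicate 2 is low, and after E15.5 most libraries are at or near 0 apart from Spp1, Alpl and Runx2; the vertical scales differ.

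After E15.5, Ibsp, Bglap, Sp7 and Dmp1 had at most 0.254 CPM in any diaphragm library, while Spp1, Alpl and Runx2 had higher levels in some groups. At P0.5 Spp1 had 3.57, 0 and 3.92 CPM in Cre-positive libraries and 0 reads in Cre-negative ones. Runx2 had at most 0.0304 CPM in Cre-positive libraries at P0.5, against 0, 2.48 and 2.12 CPM in Cre-negative ones. In each case a library of the higher group was at 0, so that the groups overlapped, and 0 of the 7 genes separated in either direction, beside 20.8% higher and 18.5% lower over all genes. At P0.5 the intermediate Cre-positive library was replicate 1, with weights of 0.965 on replicate 3 and 0.0342 on replicate 2. The intermediate Cre-negative library was replicate 3, with weights of 0.812 on replicate 2 and 0.188 on replicate 1. The like levels within these pairs are therefore not shown to be separate observations. At P10 Spp1 had 0.925, 0.0851 and 0.872 CPM in Cre-positive libraries, against 4.55, 3.57 and 4.82 CPM in Cre-negative ones, a mean 6.88-fold lower (log2 difference -1.75 ± 0.95, SE). Runx2 had 0 reads in Cre-positive libraries at P10 and 0.102, 1.68 and 0.784 CPM in Cre-negative ones. These 2 genes were lower without overlap at P10, beside 23% of tested genes, and 0 were higher, beside 9.52%.

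Alpl was the gene of the 7 with clear adult levels in diaphragm, where it is also known from blood vessels. It had 12.3, 5.13 and 7.49 CPM in adult Cre-positive libraries and 7.04, 13.5 and 0.673 CPM in adult Cre-negative ones. The groups overlapped, and the log2 difference was 0.61 ± 0.64 (SE) with all libraries and -0.29 without Cre-negative replicate 3. Adult Spp1 had 0.0637, 1.11 and 0.882 CPM in Cre-positive libraries and 0.852, 0 and 1.53 CPM in Cre-negative ones. The other 5 genes had 0 reads in adult Cre-positive libraries and at most 0.0331 CPM in Cre-negative ones. In adults 0 of the 7 separated in either direction, beside 11% higher and 21.7% lower over all genes.

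Of the 21 other bone genes tested in diaphragm, 2 were higher and 2 lower in Cre-positive libraries at E15.5 (limma), beside 4.88% and 6.11%, 11% together, over all, with a median log2 difference of 0.11, beside -0.06 for all tested genes. Ifitm5 had 21.8, 0 and 19.7 CPM in Cre-positive libraries and 0, 0.311 and 0.0751 CPM in Cre-negative ones (log2 difference 2.80, adjusted p = 0.016, limma). Pth1r, the parathyroid hormone receptor, had 87.7, 18.6 and 74.4 CPM in Cre-positive libraries and 11.6, 10.7 and 11.9 CPM in Cre-negative ones (2.03, adjusted p = 0.028, limma). Both genes showed the low Cre-positive replicate 2 again, and the groups of Ifitm5 overlapped. Col13a1 averaged 0.978 ± 0.628 CPM in Cre-positive and 5.28 ± 0.721 CPM in Cre-negative libraries (-1.72, adjusted p = 0.0058, limma). Col1a1 averaged 395 ± 46.5 and 877 ± 58.4 CPM (-1.15, adjusted p = 0.0046, limma). The summed fibroblast markers, which include collagen genes, averaged 2518 ± 156 CPM in Cre-positive and 3659 ± 413 CPM in Cre-negative libraries, with 1 of 17 called, Col3a1, at 375 ± 86.3 and 1086 ± 15.9 CPM (limma), and their part in the level of Col1a1 was not tested. The adjusted p-values of Ifitm5, Pth1r, Col13a1 and Col1a1 were 0.62, 0.69, 0.52 and 0.45 without the intermediate libraries. Without Cre-positive replicate 1 or 3 the value of Ifitm5 was 0.11 in both cases and that of Pth1r 0.14 and 0.13. Leaving out any 1 of the Cre-negative libraries gave 0.053 to 0.083 for Pth1r. With a pseudocount of 0.1 the adjusted p of Ifitm5, Pth1r and Col13a1 was 0.092, 0.056 and 0.051, and edgeR gave 0.18 for Ifitm5 and 0.43 for Col13a1.

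At P0.5, 2 of the 21 were higher and 4 lower in Cre-positive diaphragm, beside 12.1% and 15.7%, 27.7% together, over all, with a median of -0.19, beside -0.01. Bmp2, a bone-inducing growth factor, averaged 0.412 ± 0.348 CPM in Cre-positive and 5.97 ± 1.76 CPM in Cre-negative libraries (log2 difference -2.31, adjusted p = 1.2e-04, limma). Lox, which crosslinks collagen, averaged 33.7 ± 28.6 and 121 ± 40.1 CPM (-2.07, adjusted p = 3.7e-04, limma). The fibroblast markers summed to 2916 ± 1147 and 5377 ± 1131 CPM at this age, with 6 of 17 lower and 1 higher (limma), and their part in the level of Lox was not tested. How many of these 17 were called without the intermediate libraries was not counted. Col13a1 averaged 3.32 ± 3.48 and 0.213 ± 0.336 CPM (1.58, adjusted p = 0.0040, limma). Notum had 1.05, 4.5 and 0.526 CPM in Cre-positive libraries and 0 reads in Cre-negative ones (adjusted p = 0.022, limma, and 0.14 without Cre-positive replicate 2 and 0.052 without Cre-negative replicate 3). Without the intermediate libraries the adjusted p of Bmp2, Lox and Col13a1 was 0.076, 0.13 and 0.18, and edgeR gave 0.15 for Bmp2. Notum did not pass the filter there.

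At P10 and in adults few of the list were called. At P10, 1 of 21 was lower, beside 1.03% lower, 0.419% higher and 1.45% in either direction over all, with a median of -0.32, beside -0.13. It was Serpinf1, which encodes a secreted factor of bone mineralization, with 96.4 ± 4.87 CPM in Cre-positive and 187 ± 19.1 CPM in Cre-negative libraries (log2 difference -0.95, adjusted p = 0.033, limma). Leaving out any 1 of the 6 libraries at P10 raised that to between 0.053 and 0.15, and it was 1 without the intermediate libraries, 0.20 with DESeq2 size factors and 0.26 with edgeR. In adults 1 of 21 was higher and 2 lower, beside 3.06% and 8.92%, 12% together, with a median of -0.19, beside -0.12. Omd, an osteoblast proteoglycan, averaged 4.41 ± 0.830 CPM in Cre-positive and 14.7 ± 6.61 CPM in Cre-negative libraries (-1.45, adjusted p = 0.0088, limma). Kazald1 averaged 8.78 ± 2.02 and 0.812 ± 0.704 CPM (2.50, adjusted p = 0.049, limma), and Lox averaged 0.225 ± 0.0696 and 1.71 ± 0.525 CPM (-1.13, adjusted p = 0.048, limma). Without the intermediate libraries the adjusted p of Omd, Kazald1 and Lox was 0.57, 0.55 and 0.66, and leaving out any 1 adult library, and most libraries of other ages, lifted those of Kazald1 and Lox above 0.05. Kazald1 had 0.069 with a pseudocount of 0.1, 0.067 without the filter and 0.13 with edgeR, and Lox had 0.052 without the filter. Omd had 0.050 without Cre-negative replicate 1 and 0.052 without replicate 3.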

How the data were processed

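The authors deposited a table of 18845 genes in CPM for 36 libraries of RNA purified by HA tag. RSEM 1.2.12, Bowtie2 2.2.5 and mm10 are named, per the submitters' processing notes; their order is not given in the sources used here. Each column adds up to 1000000 CPM. Dividing by the value of 1 read gave whole numbers, within 0.1, for all values in every library, although in Cre-positive P0.5 replicate 3 that step could not be told from rounding. Groups followed the labels.

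The members and gene lists (other bone and mineralization, osteoclast, cartilage, fibroblast and meninges, marrow neutrophil, erythroid, microglia and macrophage, endothelial, motor neuron) were chosen with earlier results of these data known. Differences are from limma 3.58.1 in R 4.3.3 (trend, robust) on log2(CPM + 1), over genes that reached 1 CPM in 3 or more of its libraries, with 1 fit for the 12 spinal cord and 1 for the 24 diaphragm libraries. They understate changes of genes near 0. Calls had a Benjamini-Hochberg adjusted p under 0.05 over all tested genes; the members have no test. Named from the bone list were up to 4 called genes per comparison with the largest difference, whose higher mean reached 1 CPM. Acp5, Ctsk, Col2a1, Mepe and Dspp were named after their values were seen. Other settings run were no filter, a pseudocount of 0.1, DESeq2 1.42.0 size factors, edgeR 4.0.16 on the recovered reads (without Cre-positive P0.5 replicate 3), replicate blocks, and libraries left out. Genes were matched to RefSeq tables of GRCm38.p6. The fits were tested on simulated data. Floors cover counting error only.

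Replicate numbers showed little pairing within a tissue: deviations of same-numbered libraries correlated above 0.1 in 2 of 18 pairs in spinal cord and 1 of 84 in diaphragm. Pairing of spinal cord with diaphragm libraries was not checked.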

Additional observations from a re-analysis of the deposited data

Results flagged for a closer look

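The 7 genes and the 34 other bone and mineralization genes were screened for differences between Cre-positive and Cre-negative diaphragm that turned direction with age. In 3 genes they ran in opposite directions at different ages, with no overlap between the libraries. Over all tested genes, 9.52% to 20.8% were higher and 18.5% to 23% lower without overlap at a single age. How many of all genes did so in opposite directions was not counted, and the change with age was not tested. The log2 differences of Col13a1, a transmembrane collagen, were -1.72 at E15.5, 1.58 at P0.5 and -0.93 in adults, and the adult one was not called (adjusted p = 0.12, limma). Its levels were 1.51, 0.283 and 1.14 CPM in Cre-positive and 4.65, 5.12 and 6.07 CPM in Cre-negative libraries at E15.5, and 1.44, 7.33 and 1.18 CPM against 0.601, 0 and 0.0390 CPM at P0.5. Those of Serpinf1 were 0.50 at E15.5, which was not called (adjusted p = 0.15, limma), and -0.95 at P10. Kazald1 had -1.50 at P10, which was not called (adjusted p = 0.47, limma), with 1.47, 5.48 and 3.90 CPM in Cre-positive and 7.92, 13.8 and 12.3 CPM in Cre-negative libraries. In adults it had 2.50, with 8.62, 10.9 and 6.84 CPM in Cre-positive and 1.24, 0 and 1.19 CPM in Cre-negative libraries. None of the 4 differences that were called in these genes, those of Col13a1 at E15.5 and P0.5, of Serpinf1 at P10 and of Kazald1 in adults, was called without the intermediate libraries (adjusted p = 0.52, 0.18, 1 and 0.55, limma).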

How the results depend on the processing

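No called difference of a named gene turned its direction under the alternatives run. In spinal cord the called genes numbered 9668 (P0.5 against E15.5), 10526 (P10 against P0.5) and 9079 (adult against P10), and in diaphragm 1522, 3844, 201 and 1659 from E15.5 to adult. Without the intermediate libraries the diaphragm counts were 7, 108, 0 and 14 (1036, 2335, 246 and 1042 at an unadjusted p under 0.05, limma), and the listed bone genes called were 0 at every age (3, 5, 1 and 2 unadjusted), with 8 in spinal cord P0.5 against E15.5. edgeR called 620 genes at E15.5, 46 at P10, and 0 and 5 bone genes at P10 and in adults (3 unadjusted at P10). Without the filter the counts were 2434 at E15.5 and 365 at P10, with 9 bone genes at E15.5 and 1 in adults. With a pseudocount of 0.1 there was 1 bone gene at E15.5, and with DESeq2 size factors 0 at P10 (2 unadjusted, limma). Leaving out 1 library gave 693 to 2355, 2713 to 4415, 44 to 371 and 844 to 2454 called genes in diaphragm, and 2 to 8, 5 to 7, 0 to 1 and 0 to 4 bone genes. At E15.5 the called genes numbered 693 without Cre-positive replicate 3, 853 without replicate 1, 828 without Cre-negative replicate 2 and 2355 without Cre-negative P0.5 replicate 1. At P10 they were 44 and 48 without replicate 3 of the Cre-negative and Cre-positive groups, 93 without Cre-negative replicate 1 and 124 without Cre-positive replicate 2. Leaving out a library of another age gave 371 (Cre-negative P0.5 replicate 1), 325 (Cre-negative E15.5 replicate 1) and 306 (Cre-positive P0.5 replicate 2). In adults they were 844 without Cre-negative replicate 1 and 909 without Cre-positive replicate 3. In spinal cord the ranges were 8947 to 9740, 9934 to 10631 and 8248 to 9325, with 11 to 17, 13 to 19 and 11 to 13 bone genes. The cause of these shifts was not tested.

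With replicate number as a block, for numbers that showed little pairing within a tissue, the called genes were 9843, 10623 and 9266 in spinal cord and 1457, 3773, 165 and 1572 in diaphragm. Of the named calls the block lost Lox in adults (adjusted p = 0.063, limma). With DESeq2 size factors the median over all genes came to 0.00, 0.01 and 0.01 in spinal cord and 0.06, 0.21, 0.00 and 0.03 in diaphragm. Calls were then 4835 higher and 4717 lower, 5322 and 5274, and 4881 and 4334 in spinal cord, against 3732 and 5936, 4706 and 5820, and 3153 and 5926 as deposited. In diaphragm they were 819 and 531, 2610 and 1292, 79 and 83, and 971 and 794, against 676 and 846, 1672 and 2172, 58 and 143, and 424 and 1235. Of 854 recomputed differences of those of the 7 genes that were fitted, Sp7 not among them, 60 moved by more than the spread between replicates. Of these, 24 moved with edgeR and 18 with the smaller pseudocount. Genes near 0 depend most on the pseudocount: Bglap in adults against P10 was -1.60, and -4.40 with a pseudocount of 0.1.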
